A study of Mus musculus with 10 samples.

Results

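CCR2+ monocytes sorted from the lungs of tumour-bearing mice were compared between a low and a highly metastatic breast tumour. The comparison took 5 of the 10 libraries of the study, chosen by sample title and by no measured value. The low metastatic tumour is HCl-002 (TN2), with monocyte libraries from tag_367, tag_706 and tag_1341, and the highly metastatic tumour is HCl-001 (TN1), with tag_191 and tag_482. All mice were of the NOD/scid strain, a host without mature T and B lymphocytes, and their tumours were at end point. The other 5 libraries are neutrophils that carry the same tags. Tumour-free mice were not analysed here. The labels do not state that tags are separate animals, so the tests measure the spread between these samples, which may be technical.

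RNA of the sorted cells was amplified by Smart-seq2, a PCR method that reads whole transcripts and has no molecular barcodes, so PCR copies remain in the counts. The authors' kallisto estimates were summed to genes. Levels are in CPM (counts divided by the library size after TMM scaling), a unit that compares libraries and, being uncorrected for length, not genes. Values run in the order TN1 tag_191, TN1 tag_482, then TN2 tag_367, tag_706 and tag_1341. A log2 difference is TN2 minus TN1 from edgeR, with its standard error (SE), over 2 and 3 libraries. Coordinates are GRCm38, from GENCODE M21.

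CCR2 lets classical, Ly6C-high monocytes leave the bone marrow and follow the chemokine CCL2 into inflamed tissue, where they can turn into macrophages or antigen-presenting cells. Interferon gamma acts on them through its receptor and the JAK kinases, and induces GTPases that attack pathogen vacuoles, chemokines for lymphocytes and, through the transactivator CIITA, the MHC class II molecules that show peptides to helper T cells. Type I interferons induce an overlapping set of antiviral genes.

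The libraries held 7239218 and 7293156 estimated counts in TN1 and 9756124 to 10170794 in TN2. TN1 tag_482 stood apart, with the fewest genes at 5 counts or more (9744, against 11608 to 15231 in the other 4 libraries) and 19.9% of TPM on mitochondrially encoded genes (4.82% to 5.82% in the others). TPM divides counts by transcript length and gives each library the same total. The first principal component held 51.6% of the variance and separated TN1 tag_482, and the second held 32.0% and separated TN2 tag_706 from TN2 tag_1341. The most alike pair of libraries crossed the tumours. TN1 tag_191 and TN2 tag_367 had a Spearman coefficient of 0.962 over 12312 genes, and 8.87% of 9413 genes with 5 CPM or more on average differed over 2-fold between them. Pairs within a tumour had coefficients of 0.784 to 0.923, and 21.1% to 43.0% of genes differed over 2-fold.

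**Figure D1:**
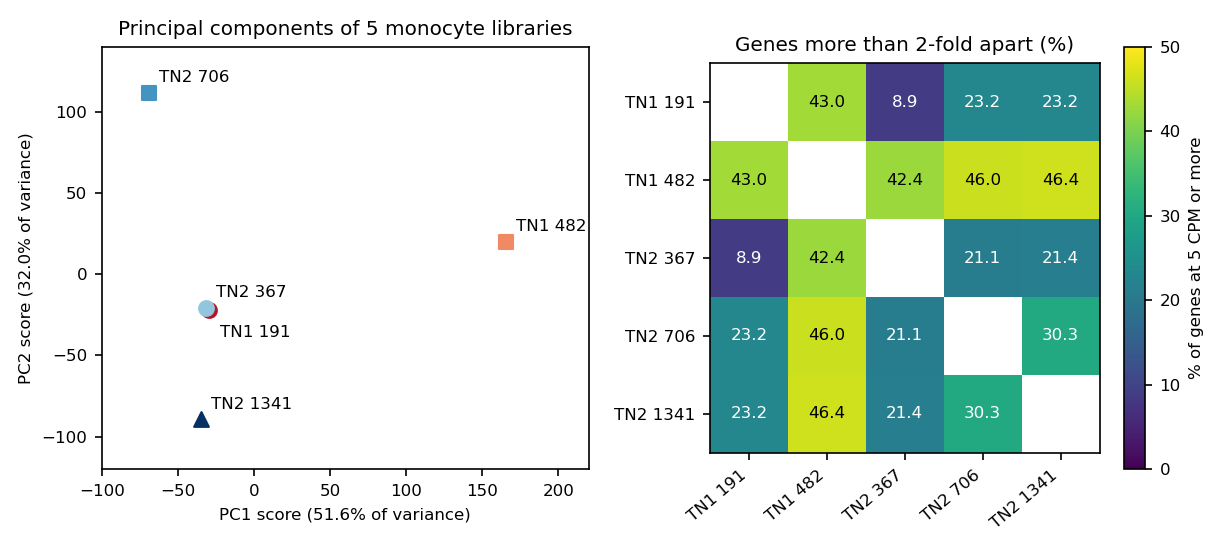
Left, scores of the 5 monocyte libraries on the first 2 principal components of log2 CPM (axes in score units, with the share of variance). Right, percent of 9413 genes that differed more than 2-fold between each pair of libraries, where TN1 tag_191 and TN2 tag_367 differed in 8.87% of genes and pairs with TN1 tag_482 in 42.4% to 46.4%.

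The sorted cells carried the genes of monocytes. All 15 monocyte markers were present, and their summed level was 14661 and 14281 CPM in TN1 and 15876, 7681 and 18144 CPM in TN2. Ccr2, the receptor used in the sort (chromosome 9, 124101950 to 124113557), was at 717 and 1178 CPM under TN1 and 873, 307 and 859 CPM under TN2. On a scale over all 10 libraries Ccr2 was at 226 to 869 CPM in monocytes and 3.48 to 78.5 CPM in neutrophils. T cell markers summed to 7.90 to 58.3 CPM and B cell markers to 66.6 to 282 CPM, the latter mostly Ighm, while the lineage genes Cd3e, Ms4a1 and Jchain were at 0 counts in all 5 libraries. TN2 tag_706 had the lowest monocyte sum and the highest sums of stromal (8477 CPM, 257 to 1030 CPM in the others), endothelial (3190 CPM, 46.9 to 350 CPM) and epithelial markers (668 CPM, 5.22 to 250 CPM). In bulk RNA, fewer cells of a type and less RNA per cell cannot be told apart.

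**Figure D2:**
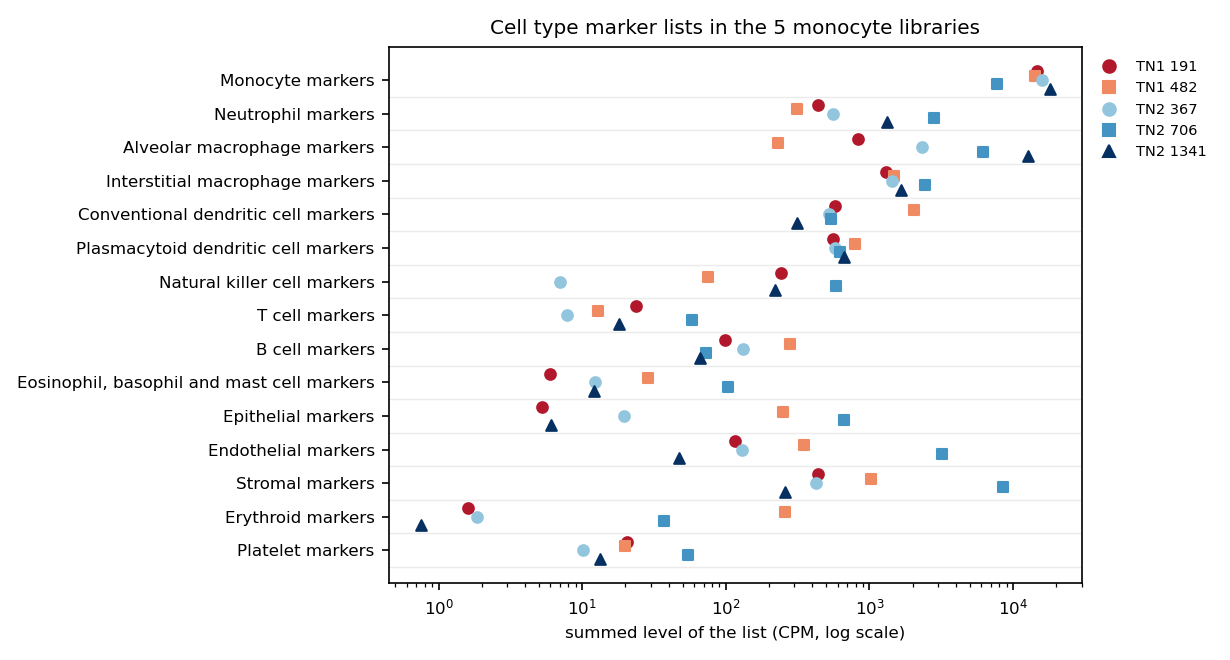
Summed level of each cell type marker list (CPM, log axis) in the 5 monocyte libraries, 1 point a library. TN2 tag_706 lies highest for stromal, endothelial, epithelial and neutrophil markers, and TN1 tag_482 highest for conventional dendritic cell markers (2041 CPM, 312 to 578 CPM in the others).

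No gene passed between the tumours in edgeR (0 of 12312 genes, 0%), and the smallest adjusted p was 0.947. At an unadjusted p under 0.05 stood 334 genes (2.71%), 181 higher (1.47%) and 153 lower in TN2 (1.24%). The DESeq2 Wald test called 7 genes, of which Lcn2 and Chil3 were higher and Clec4n, Clec4f, Gm10443, Rpl38-ps2 and Gm10718 lower in TN2. limma-voom called 0. limma-trend on log2(TPM + 1) called 4 genes, all lower in TN2, namely Gm10443, Rpl38-ps2, Gm13577 and Gm20545, whose transcripts are shorter than 300 bases, and 0 once such transcripts were left out. The median log2 difference of all genes was 0.16, and 57.7% of genes were above 0. Libraries of the tumours did not overlap for 2558 genes (20.8%), of which 1511 were higher (12.3%) and 1047 lower in TN2 (8.5%). On TPM the non-overlapping genes split into 2766 higher and 345 lower, and the median of all genes shifted to 0.44, so the main list medians are also given relative to all genes on that scale. The median SE was 0.82 over all genes and 0.33 over the 1764 genes at 100 CPM or more. The differences below are values beside their spread, and none is a call by edgeR.

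Among 1018 candidate genes above and 900 below in TN2 without overlap, the 12 of smallest p in each direction are described first. These 24 were picked from this contrast, so their separation is a consequence of the choice. In the authors' deposited table all 24 had the same sign, and p was under 0.05 for 23 of them before adjustment and for 0 after it. That table comes from the same 5 libraries, so the shared signs also follow from the choice and are no separate support.

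**Figure D3:**
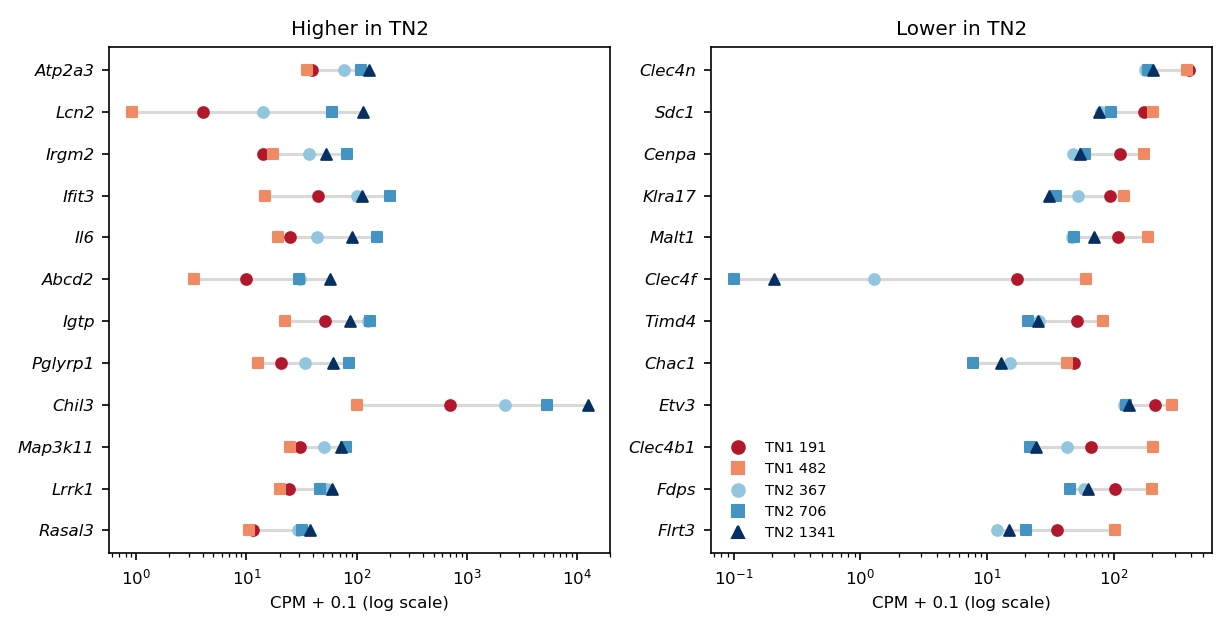
Level of the 24 genes of smallest p (CPM + 0.1, log axis) in each monocyte library, 1 symbol a library, with 12 genes higher in TN2 at left and 12 lower at right. The tumours do not overlap for any of these genes, because non-overlap was part of the choice; Chil3 spans 100.2 to 12492 CPM and Clec4n 174 to 391 CPM.

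The higher genes held 3 that interferons induce. Igtp and Irgm2 encode immunity-related GTPases that act on pathogen vacuoles, and Ifit3 encodes an antiviral protein with tetratricopeptide repeats. Igtp (chromosome 11, 58199556 to 58207591) was at 51.1 and 22.1 CPM under TN1 and 126, 131 and 86.5 CPM under TN2 (1.65 ± 0.47), Irgm2 (chromosome 11, 58199618 to 58222782) at 13.9 and 17.5 CPM under TN1 and 36.6, 80.9 and 52.1 CPM under TN2 (1.85 ± 0.49). Every TN2 library exceeded the higher TN1 library, by the least in TN2 tag_1341 for Igtp and in TN2 tag_367 for Irgm2. The annotated spans of Igtp and Irgm2 overlap, so reads could be split between them and their separate values are uncertain. Ifit3 (chromosome 19, 34583531 to 34588731) was at 44.6 and 14.5 CPM under TN1 and 101, 201 and 112 CPM under TN2 (2.23 ± 0.61), with TN2 tag_706 highest and TN1 tag_482 lowest. Ifit3 has the close copy Ifit3b, so its value is uncertain as well.

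The promoters of these genes are shown because they share letters of the interferon-stimulated response element (GAAA, any 2 bases, GAAA), searched on both strands. In RefSeq promoters of GRCm38.p6 (250 bases before to 50 after the start), it occurred in 3 of 11 higher genes with an entry (Igtp, Irgm2 and Ifit3), in 1 of 9 lower genes (Clec4b1, encoding a dendritic cell lectin) and in 3.44% of 32851 promoters. The capitals mark the matches, on the gene's strand, which is plus for all 4. The windows are chr11:58199472-58199555 for Igtp, chr11:58214863-58214972 for Irgm2, chr19:34583323-34583466 for Ifit3 and chr6:123049837-123049946 for Clec4b1.
Igtp: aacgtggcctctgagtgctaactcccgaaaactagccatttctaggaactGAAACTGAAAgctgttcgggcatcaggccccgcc
Irgm2: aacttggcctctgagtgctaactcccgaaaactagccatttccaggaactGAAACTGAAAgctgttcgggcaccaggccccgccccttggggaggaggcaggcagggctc
Ifit3: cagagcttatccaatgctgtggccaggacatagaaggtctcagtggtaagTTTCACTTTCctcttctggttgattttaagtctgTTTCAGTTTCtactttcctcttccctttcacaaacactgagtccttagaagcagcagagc
Clec4b1: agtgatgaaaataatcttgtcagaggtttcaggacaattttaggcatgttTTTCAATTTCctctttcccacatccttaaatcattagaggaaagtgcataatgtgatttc
Aligned at the match, Igtp and Irgm2 were identical at 81 of the 84 bases compared (96.4%). Between the match and the RefSeq start site lie 24 bases in Igtp and 54 in Irgm2. Ifit3 held 2 matches and the others 1. In Clec4b1, whose level was lower in TN2, the match is on the opposite strand, as in Ifit3. Of the other motifs searched on both strands, CCAAT was in 3 of 11 and 6 of 9 against 37.4% of all promoters, GGGCGG in 7 of 11 and 4 of 9 against 35.7%, TTCNNNGAA in 4 of 11 and 0 of 9 against 8.30%, TATAAA in 1 of 11 and 0 of 9 against 13.6% and TGACTCA in 1 of 11 and 0 of 9 against 5.20%. A match describes letters and is not a binding site.

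Secreted proteins made up the next group. Il6, an inflammatory cytokine (chromosome 5, 30013114 to 30019981), was at 24.5 and 19.3 CPM under TN1 and 43.9, 154 and 90.6 CPM under TN2 (2.13 ± 0.60). Lcn2, an iron-withholding protein stored in neutrophil granules (chromosome 2, 32384633 to 32388252), was at 3.92 and 0.817 CPM under TN1 and 13.9, 59.1 and 115 CPM under TN2 (4.71 ± 1.22), and Pglyrp1, a peptidoglycan-binding granule protein, at 20.3 and 12.6 CPM under TN1 and 34.2, 85.5 and 61.4 CPM under TN2 (1.87 ± 0.54). For all 3 the TN2 library most like TN1 tag_191, TN2 tag_367, was the lowest of its tumour.

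Chil3 encodes the chitinase-like lectin Ym1, which classical monocytes, alveolar macrophages and neutrophils express. Chil3 (chromosome 3, 106147554 to 106167564) was at 701 and 100.2 CPM under TN1 and 2235, 5346 and 12492 CPM under TN2 (4.06 ± 1.19). The libraries of each tumour were far apart from one another, and the lowest TN2 library was still above both TN1 libraries. Chil3 has close paralogs, so its count is uncertain.

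The remaining higher genes were signalling and transport genes. Rasal3, an inhibitor of Ras in blood cells, was at 11.3 and 10.5 CPM under TN1 and 29.1, 31.8 and 37.5 CPM under TN2 (1.59 ± 0.48). The kinase gene Lrrk1 was at 22.2 ± 2.71 and 53.1 ± 6.74 CPM under TN1 and TN2 (mean ± SD, n = 2 and 3, 1.26 ± 0.37) and the stress kinase gene Map3k11 at 27.6 ± 4.32 and 67.6 ± 15.4 CPM (1.29 ± 0.38). Atp2a3, a calcium pump of the endoplasmic reticulum (chromosome 11, 72961169 to 72993044), was at 39.6 and 35.3 CPM under TN1 and 76.6, 109 and 129 CPM under TN2 (1.48 ± 0.35). Abcd2, a peroxisomal transporter of very long fatty acids, was at 9.87 and 3.27 CPM under TN1 and 30.6, 30.03 and 57.8 CPM under TN2 (2.58 ± 0.72). Spread within a tumour was small for Rasal3 and Lrrk1 and wider for Abcd2, where TN1 tag_482 was lowest.

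The lower genes held 3 C-type lectins and a receptor of a related family. Clec4n, which encodes Dectin-2, a receptor for fungal mannans (chromosome 6, 123229843 to 123247021), was at 391 and 373 CPM under TN1 and 174, 183 and 201 CPM under TN2 (-1.04 ± 0.23). It had the smallest SE of the 24, and the libraries of each tumour lay close together. Clec4f, a galactose-binding lectin known from liver macrophages (chromosome 6, 83644542 to 83656187), was at 17.0 and 59.6 CPM under TN1 and 1.17, 0 and 0.107 CPM under TN2 (-6.44 ± 1.66). Clec4b1 was at 65.6 and 203 CPM under TN1 and 42.5, 21.5 and 23.9 CPM under TN2 (-2.20 ± 0.57), and Klra17, an inhibitory receptor of the Ly49 family with close paralogs that make its count uncertain, at 93.2 and 119 CPM under TN1 and 51.6, 34.9 and 30.6 CPM under TN2 (-1.44 ± 0.36). For Clec4f and Clec4b1, TN1 tag_482 was more than 3 times as high as TN1 tag_191.

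Other lower genes had diverse roles. Timd4, a receptor for phosphatidylserine on dying cells, was at 51.1 and 81.5 CPM under TN1 and 25.4, 20.9 and 25.0 CPM under TN2 (-1.48 ± 0.38), and Sdc1, a heparan sulphate proteoglycan, at 172 and 201 CPM under TN1 and 78.2, 93.6 and 75.6 CPM under TN2 (-1.18 ± 0.26). Etv3, a transcriptional repressor, was at 209.7 and 286 CPM under TN1 and 119, 125 and 131 CPM under TN2 (-0.99 ± 0.26). In these 3 the TN2 libraries lay close together and TN1 tag_482 was highest. Malt1, a protease of NF-kB signalling, was at 146 ± 53.5 and 54.4 ± 12.5 CPM under TN1 and TN2 (-1.42 ± 0.36), Cenpa, the centromeric histone variant, at 141 ± 41.9 and 53.3 ± 5.71 CPM (-1.41 ± 0.31), and Flrt3, an adhesion protein, at 68.4 ± 46.8 and 15.5 ± 4.24 CPM (-2.14 ± 0.56). Fdps, an enzyme of the mevalonate pathway, was at 150 ± 69.5 and 55.3 ± 9.10 CPM (-1.44 ± 0.38) and Chac1, a glutathione-degrading enzyme of the amino acid stress response, at 45.3 ± 3.71 and 11.8 ± 3.87 CPM (-1.94 ± 0.50), each with n = 2 and 3. Chac1 differed from most of these in that TN1 tag_482 did not exceed TN1 tag_191.

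Genes of MHC class II presentation were lower in TN2 monocytes, all without passing the test. Of 14 measured genes 0 had a positive log2 difference, the median was -1.25 (0.16 over all genes), 8 lay below both TN1 libraries in every TN2 library (8.5% of all genes did) and 6 had an unadjusted p under 0.05 (1.24% of all genes). The 3 class II chains given here and their chaperone had differences of similar size. H2-Ab1, a class II beta chain (chromosome 17, 34257689 to 34269419), was at 10311 and 23235 CPM under TN1 and 8209.5, 4133 and 2803 CPM under TN2 (-1.73 ± 0.64). H2-Aa, the alpha chain that pairs with it, was at 7599.5 and 14034 CPM under TN1 and 6062, 2642 and 1693 CPM under TN2 (-1.64 ± 0.64), and H2-Eb1, a second beta chain, at 5679.9 and 10204 CPM under TN1 and 4498, 1982 and 1157 CPM under TN2 (-1.64 ± 0.64). In all 3 the order was TN1 tag_482, TN1 tag_191, TN2 tag_367, TN2 tag_706, TN2 tag_1341, with TN2 tag_367 just below TN1 tag_191. Close relatives among the class II genes make the split between them uncertain.

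Cd74, the invariant chain that guards the class II groove, was at 12943 and 23419 CPM under TN1 and 9540.4, 4659.9 and 4379 CPM under TN2 (-1.55 ± 0.56). The peptide exchange factors H2-DMa (629 and 926 against 587, 229 and 290.5 CPM, TN1 against TN2, -1.08 ± 0.46), H2-DMb1 (415 and 666 against 331, 125 and 142 CPM, -1.44 ± 0.50) and H2-DMb2 (358 and 605 against 298, 125 and 113 CPM, -1.43 ± 0.50) also lay lower in every TN2 library, and H2-Oa, a modulator of that exchange, was the other gene without overlap (-1.75 ± 0.91). Ciita, the class II transactivator, overlapped between the tumours at 36.4 and 71.7 against 55.4, 22.4 and 32.4 CPM (-0.56 ± 0.53). The proteases and reductase that prepare peptide also overlapped, with Ctss at -0.14 ± 0.43, Lgmn at -0.24 ± 0.31 and Ifi30 at -0.43 ± 0.48. The remaining members H2-Eb2, a further beta chain, and H2-Ob overlapped as well. Within the list, then, most chains and the H2-DM exchange factors separated the tumours. The processing enzymes, Ciita, H2-Eb2 and H2-Ob did not.

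Without TN1 tag_482 the class II median was -0.95, and 9 of 14 genes lay lower and 1 higher without overlap (19.1% and 21.3% of all genes when TN1 had 1 library). Without any 1 of the other libraries the median ran from -2.00 (without TN2 tag_367) to -1.03 (without TN2 tag_706), and on log2(TPM + 1) it was -1.57 relative to all genes. Conventional dendritic cell markers also leaned lower, with 2 of 12 positive and a median of -0.98, which was -0.20 without TN1 tag_482. Their summed level was 578 and 2041 CPM in TN1 and 520, 540 and 312 CPM in TN2. Cd209a, a lectin of monocyte-derived dendritic cells, was at 178 and 656 CPM under TN1 and 152, 70.5 and 41.6 CPM under TN2 (-2.24 ± 0.72), and Ccr7, the receptor that guides dendritic cells to lymph nodes, at 148 and 739 CPM under TN1 and 93.1, 171 and 101 CPM under TN2 (-1.86 ± 0.66). The part of dendritic cells in the class II values was not tested.

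Costimulatory and checkpoint ligands leaned the same way, with 4 of 17 positive, a median of -0.53 (-0.52 relative to all genes on log2(TPM + 1)) and 3 lower without overlap (8.5% of all genes). Without TN1 tag_482 the median was -0.22. Cd86, a ligand that activates T cells through CD28, was at 336 and 543 CPM under TN1 and 179, 168 and 289 CPM under TN2 (-1.05 ± 0.36). Cd276, a related checkpoint ligand, was at 18.9 and 53.9 against 15.2, 9.05 and 13.9 CPM (-1.51 ± 0.63). Cd40 (-0.76 ± 0.45) and Cd83 (-0.91 ± 0.45) overlapped. Cd274, which encodes PD-L1, was at 253 and 23.9 CPM under TN1 and 109, 181 and 149 CPM under TN2 (0.07 ± 0.87), and its TN1 libraries bracketed all of TN2. Of 16 genes for MHC class I and peptide supply 4 were positive, with a median of -0.20 that became 0.12 on log2(TPM + 1). Relative to all genes these medians were -0.36 and -0.32.

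**Figure D4:**
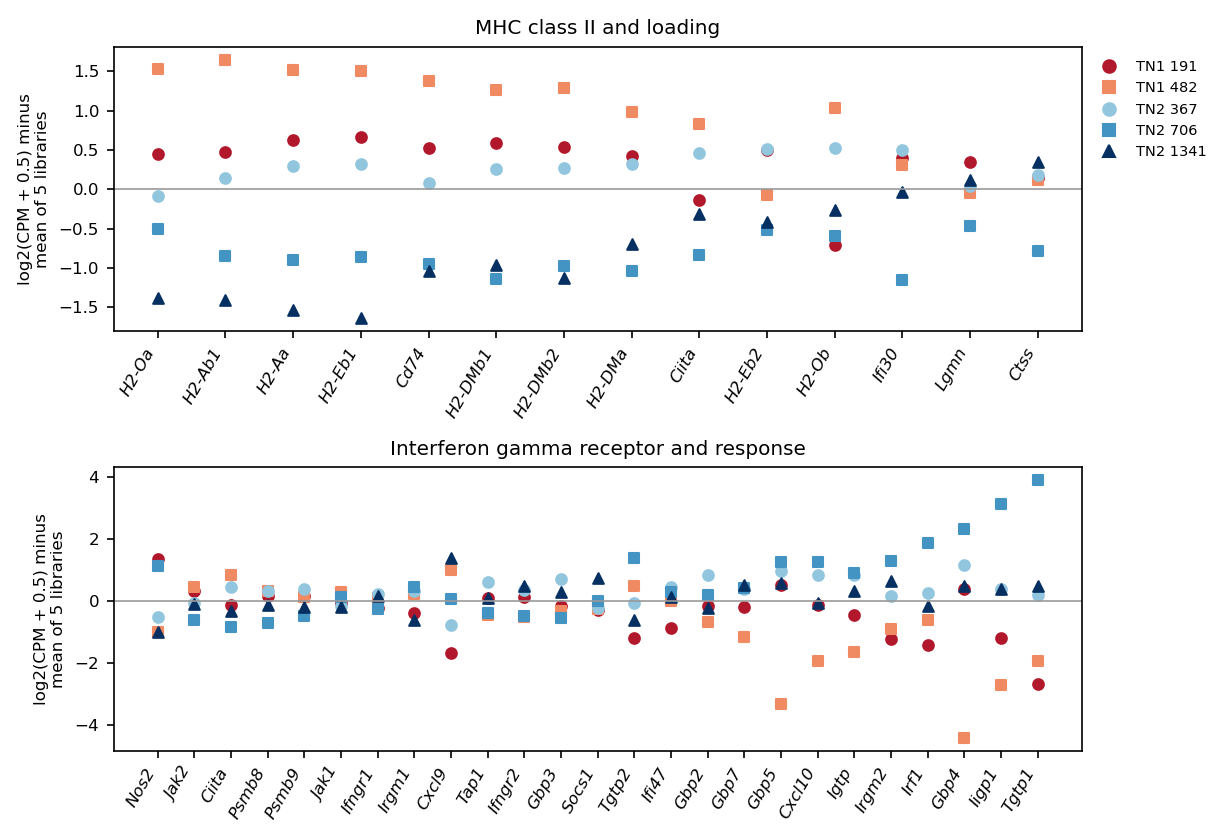
Level of members of the class II list (top, all 14) and interferon gamma list (bottom, 25 of 26) in each library, as log2(CPM + 0.5) minus the mean of the 5 libraries, with genes ordered by log2 difference. For the class II chains H2-Ab1, H2-Aa and H2-Eb1, TN2 tag_706 and TN2 tag_1341 lie lowest and TN2 tag_367 lies next to TN1 tag_191. In the lower panel the GTPase genes at right lie lower in both TN1 libraries.

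Interferon gamma genes leaned the other way. Of 26 measured genes 20 were positive (57.7% of all genes were), the median was 0.55, 11 lay higher and 1 lower without overlap (12.3% and 8.5% of all genes), and 6 had an unadjusted p under 0.05, all higher (1.47% of all genes). Among the 11, Tgtp1 could pass the filter on low counts only through TN2 libraries, and Gbp4 and Gbp5 needed a TN2 library. That favours their separation, so these counts describe the list and are no test. Both receptor chains overlapped between the tumours. Ifngr1 was at 701 and 879 CPM under TN1 and 967, 699.7 and 931 CPM under TN2 (0.13 ± 0.28), and Ifngr2 (0.35 ± 0.39) and Jak1 (-0.19 ± 0.26) also overlapped. Jak2 lay lower in TN2, at 118 and 129 against 89.1, 61.4 and 88.4 CPM (-0.63 ± 0.30). Ifng itself had at most 3.45 CPM in any library.

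The higher members were effectors. Irf1, a transcription factor that interferon gamma induces (chromosome 11, 53770014 to 53778374), was at 92.2 and 161 CPM under TN1 and 296, 906 and 222 CPM under TN2 (1.91 ± 0.70), with TN2 tag_706 far above the rest. GTPases of the IRG family beside Igtp and Irgm2 were Iigp1 at 5.08 and 1.47 CPM under TN1 and 16.2, 113 and 16.2 CPM under TN2 (3.88 ± 1.27), Ifi47 at 62.1 and 113 against 155, 139 and 124 CPM (0.67 ± 0.35) and Irgm1, which overlapped (0.19 ± 0.41). Tgtp1 was at 0 and 0.327 against 3.12, 47.1 and 3.97 CPM, and since its copy Tgtp2 overlapped at 31.6 and 101 against 68.8, 193 and 47.2 CPM, the assignment between the pair is uncertain. For Iigp1 and Tgtp1, TN2 tag_706 was far above the other TN2 libraries.

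Guanylate-binding proteins, which lyse vacuoles, were also higher or overlapped. Gbp7 was at 82.7 and 42.2 CPM under TN1 and 123, 126 and 135 CPM under TN2 (1.03 ± 0.37), Gbp4 at 13.5 and 0 against 23.6, 53.3 and 14.5 CPM (2.17 ± 1.73) and Gbp5 at 8.998 and 0.163 against 12.4, 15.4 and 9.44 CPM (1.43 ± 1.47), and for the last pair the low value was that of TN1 tag_482. Gbp2 (0.73 ± 0.40) and Gbp3 (0.48 ± 0.41) overlapped. Cxcl10, a chemokine for T and NK cells (chromosome 5, 92346638 to 92348889), was at 57.5 and 15.9 CPM under TN1 and 112, 151 and 59.1 CPM under TN2 (1.55 ± 0.68), where TN2 tag_1341 lay just above TN1 tag_191. Cxcl9 overlapped at 1.45 and 11.9 against 3.12, 6.06 and 16.0 CPM. Without TN2 tag_706, the library with the stromal and endothelial signal, 16 of 26 members lay higher without overlap (18.6% of all genes) and the median was 0.66. The medians without any 1 library were 0.44 to 0.66. Without TN1 tag_191 the list median was 0.63 and that of all genes 0.71, so there the list was not above the background. On log2(TPM + 1) the list median was 0.30 relative to all genes.

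Type I interferon genes had a median near that of all genes. Of 30 genes 19 were positive, with a median of 0.14 (0.16 over all genes), 7 higher and 1 lower without overlap (12.3% and 8.5% of all genes). In edgeR 3 of the 30 had an unadjusted p under 0.05, all higher (1.47% of all genes). Usp18, which limits interferon signalling, was at 38.3 and 50.3 CPM under TN1 and 78.1, 83.7 and 129 CPM under TN2 (1.13 ± 0.37), and Rsad2, the antiviral enzyme viperin, at 118 and 62.7 CPM under TN1 and 156, 163 and 229.9 CPM under TN2 (1.02 ± 0.38). Isg15 (0.38 ± 0.26), Stat2 (0.50 ± 0.29), Mx2 (0.98 ± 0.54) and Ifit2 (2.10 ± 1.12) also lay higher in every TN2 library, and Ifi205, an HIN-200 family gene, lay lower (-0.71 ± 0.43). Irf7, the transcription factor of the type I response (1231 and 1059.7 against 1197, 633 and 1914 CPM), overlapped. The cytosolic DNA sensing list had 13 of 14 positive with a median of 0.31, yet 0 members without overlap. Its median was 0.02 without TN1 tag_482 (-0.15 relative to all genes) and 1.01 without TN1 tag_191 (0.30 relative to all genes). Tmem173, encoding STING, was at 85.2 and 57.4 CPM under TN1 and 139.8, 57.3 and 79.1 CPM under TN2 (0.37 ± 0.46).

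Cytokines and NF-kB genes split by gene. Of 23 genes 13 were positive, with a median of 0.12. Besides Il6, Nfkbiz, an inducible regulator of Il6, was higher without overlap at 325 and 415 against 595, 731 and 577 CPM (0.78 ± 0.27), while the NF-kB subunit genes Rel (317 and 456 against 222, 180.3 and 298 CPM, -0.73 ± 0.32) and Nfkb1 (192 and 245 against 158, 154 and 85.8 CPM, -0.72 ± 0.35) were lower. Il1b was at 4162 and 3049.5 CPM under TN1 and 4816, 1814 and 5093 CPM under TN2 (0.12 ± 0.53) and Tnf at 72.4 and 105 against 60.05, 41.6 and 99.3 CPM (-0.41 ± 0.45). Both overlapped, with TN2 tag_706 the lowest library for each.

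Chemokine ligands had 10 of 17 positive and a median of 0.31 (-0.10 to 0.63 without 1 library). Ccl2, the ligand of CCR2 (chromosome 11, 82035571 to 82037453), was at 67.2 and 69.1 CPM under TN1 and 82.1, 124 and 187 CPM under TN2 (0.94 ± 0.41), with both TN1 libraries alike and below each TN2 library. Cxcl16, the ligand of CXCR6 on lymphocytes (chromosome 11, 70453983 to 70459984), lay lower, at 374 and 561 CPM under TN1 and 305, 269 and 188 CPM under TN2 (-0.88 ± 0.32). Among 16 chemoattractant receptors 9 were positive, with a median of 0.39. Fpr2, a formyl peptide receptor, was higher without overlap at 10.3 and 0.49 against 19.3, 29.4 and 81.0 CPM (2.99 ± 1.33), and Ccr2 overlapped (-0.48 ± 0.51).

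Genes of monocyte identity overlapped for the most part. Of 20 Ly6C-high genes 13 were positive, with a median of 0.25 (-0.16 to 0.62 without 1 library), and 3 were higher and 1 lower without overlap (12.3% and 8.5% of all genes). Ly6c2 was at 572 and 392 CPM under TN1 and 588, 239.6 and 683 CPM under TN2 (0.06 ± 0.48). Fn1, encoding fibronectin (737 and 512 against 1454, 815 and 1693 CPM, 1.08 ± 0.41), and Mgst1, a microsomal glutathione transferase (181 and 92 against 304, 216 and 289.9 CPM, 0.99 ± 0.38), were higher together with Chil3. Csf1r, the receptor for macrophage colony-stimulating factor, was lower at 2114 and 2229 CPM under TN1 and 1910.3, 882 and 1742 CPM under TN2 (-0.52 ± 0.40), with TN2 tag_706 far below the other libraries.

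The Ly6C-low list, of patrolling monocytes, had 13 of 20 positive with a median of 0.37 (-0.05 to 0.62 without 1 library), and 3 genes higher and 3 lower without overlap (12.3% and 8.5% of all genes). Nr4a1, the nuclear receptor needed for these cells and also an immediate early gene (chromosome 15, 101254269 to 101274795), was at 731 and 1146 CPM under TN1 and 1278, 2181.7 and 1729 CPM under TN2 (0.88 ± 0.38). The higher genes Pglyrp1 and Ear2 are granule proteins, and the lower genes were Tcf7l2 (-1.03 ± 0.36), Itgal (-0.72 ± 0.36) and Gngt2 (-0.39 ± 0.25). Immediate early genes, which cells transcribe within minutes of a stimulus, had 17 of 23 positive and a median of 0.47 (0.09 without TN2 tag_706), with 6 higher and 1 lower without overlap (12.3% and 8.5% of all genes) and 0 at an unadjusted p under 0.05. Fos was at 1547 and 1726 against 1972, 4154 and 2161 CPM (0.76 ± 0.43) and Ier3 at 869.6 and 461 against 1035, 1139 and 964 CPM (0.65 ± 0.35), while the phosphatase gene Dusp5 was lower (-0.66 ± 0.28).

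Among transcription factors, Cebpd was at 3.63 and 2.29 against 11.5, 53.2 and 8.69 CPM (3.04 ± 1.11), Id2, a regulator needed for dendritic cells, at 1098 and 1169 against 499.8, 759.6 and 767 CPM (-0.75 ± 0.30), and Bach2, a repressor, at 5.51 and 30.2 against 3.90, 3.92 and 1.18 CPM (-2.57 ± 1.09). Cebpd was higher and the others lower without overlap, and the list of 19 had a median of -0.04 (0.35 on log2(TPM + 1)). Relative to all genes these medians were -0.20 and -0.09. Spi1 and Irf8, which set monocyte fate, overlapped (0.25 ± 0.34 and -0.09 ± 0.39).

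Neutrophil markers leaned higher in TN2 monocytes, unevenly by library. All 14 that passed the filter on low counts were positive, of 18 in the list, and 4 were higher without overlap (12.3% of all genes). Ltf (0.145 and 0 CPM in TN1, 0.585, 1.68 and 7.08 CPM in TN2), Ly6g and Elane could pass the filter only through TN2 libraries. Lcn2 and Retnlg needed a TN2 library to pass. That favours a positive sign and, as for Ltf, a lack of overlap. Neither the count of signs nor that of genes without overlap is thus a test. The other 4 were below the filter, with 2 counts for Camp, 17 for Mpo, 48 for Stfa2 and 226 for Stfa2l1 over the 5 libraries. The median was 3.02, and 1.34 without TN2 tag_706. The summed level was 436 and 312 CPM in TN1 and 558, 2801 and 1317 CPM in TN2. S100a8, an alarmin abundant in neutrophils, was at 12.2 and 31.9 CPM under TN1 and 39.4, 522 and 305 CPM under TN2 (3.71 ± 1.15). Elane was near 0 in neutrophils (mean 0.234 CPM). The other 13 genes were set beside their mean level in the 5 neutrophil libraries, on the 10-library scale. In TN2 tag_706 they stood at 0.0778% (Ltf) to 7.68% (Mmp8) of it, with a median of 2.54%. In TN2 tag_1341 they stood at 0.0378% (Mmp9) to 21.3% (Mmp8), with a median of 0.525%. In TN2 tag_367 the median was 0.158%, near the 0.169% of TN1 tag_191, and in TN1 tag_482 it was 0.0666%. What part of the differences neutrophils hold was not tested.

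On the same scale Chil3 was at 1674, 3936 and 9231 CPM in TN2 monocytes, and at 173 to 1997 CPM in neutrophils. Mmp8, a collagenase, was at 12.7%, 7.68% and 21.3% of the neutrophil mean in TN2 and at 5.28% and 5.84% in TN1. The alveolar macrophage list had 7 of 9 measured genes positive (57.7% of all genes) and 3 higher without overlap (12.3% of all genes). These were Chil3, Ear1 (13.2 and 4.25 against 22.2, 121 and 48.5 CPM) and Ear2 (8.13 and 2.45 against 13.5, 70.2 and 32.8 CPM). Ear1 and Ear2 are a pair of ribonucleases alike in sequence. Siglecf (3.05 and 5.88 against 1.75, 28.4 and 6.33 CPM), Plet1 (18.3 and 0.817 against 7.31, 125 and 6.11 CPM) and 4 others overlapped. Marco, Fabp1 and Krt79, below the filter, were at 0 counts in TN2 tag_367 and TN2 tag_1341 and at 248, 149 and 592 counts in TN2 tag_706. The list summed to 839 and 232 CPM in TN1 and 2328, 6214 and 12607 CPM in TN2. Chil3 alone held 701 and 100.2 CPM of this in TN1 and 2235, 5346 and 12492 CPM in TN2. In TN2 tag_367 and TN2 tag_1341 nearly all of the sum was thus Chil3. The list median was 2.26 in the 9 of 12 genes that passed the filter, and -0.34 without TN2 tag_706.

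Complement, coagulation and matrix genes were mixed. Of 15 complement genes 10 were positive with a median of 0.31, which was -0.07 without TN2 tag_1341. C3, the central complement component, was at 239 and 61.4 CPM under TN1 and 345, 531 and 445 CPM under TN2 (1.55 ± 0.60). Of 22 coagulation and matrix genes 16 were positive with a median of 0.71 (0.17 to 1.31 without 1 library), and the 3 higher without overlap (12.3% of all genes) were F5, encoding coagulation factor V (0.71 ± 0.41), Fn1 and Mmp8. Thbs1, encoding thrombospondin 1, overlapped at 8657 and 2644 CPM under TN1 and 6368, 4279 and 14116 CPM under TN2 (0.55 ± 0.74).

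Cytotoxic effectors had 11 of 15 positive and a median of 1.03, which ran from 0.02 without TN1 tag_482 to 6.43 without TN1 tag_191. The granzyme gene Gzma was at 73.6 and 8.33 CPM under TN1 and 0.195, 186 and 65.9 CPM under TN2 (1.03 ± 1.93), and natural killer cell markers summed to 244 and 75.0 CPM in TN1 and 7.02, 584 and 219 CPM in TN2. TN2 tag_367 had nearly none of either. Tnfsf10, encoding the death ligand TRAIL, was at 1.45 and 0.817 CPM under TN1 and 3.80, 12.9 and 1.501 CPM under TN2 (2.40 ± 1.40), a level of few counts.

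Pattern receptors and scavenger receptors had medians of 0.14 and 0.01 over 26 and 18 genes. Clec7a, encoding Dectin-1, a receptor for fungal glucans, was at 1190.3 and 1565 CPM under TN1 and 800.4, 598 and 720.0 CPM under TN2 (-0.96 ± 0.28), and Tlr6 at 29.3 and 63.6 against 27.3, 16.2 and 17.0 CPM (-1.20 ± 0.52). Trem2, a lipid-sensing receptor, was at 93.9 and 124 against 92.2, 43.1 and 45.4 CPM (-0.86 ± 0.43). Each of these lay lower in every TN2 library. Among lipid genes, Apoe was higher at 269 and 195 against 276, 1222 and 460.0 CPM (1.49 ± 0.67), and Nr1h3, encoding the oxysterol receptor LXR alpha, lower at 50.5 and 58.5 against 12.8, 25.2 and 34.5 CPM (-1.17 ± 0.51).

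All 13 mitochondrially encoded genes were lower on CPM in every TN2 library than in either TN1 library (8.5% of all genes were), with a median of -1.80. On TPM 9 of the 13 were (2.8% of all genes). mt-Nd4, which encodes a subunit of complex I, was at 1938 and 8917 CPM under TN1 and 1367, 1174 and 1361 CPM under TN2 (-2.06 ± 0.62). TN1 tag_482 was far above the others, and without it the median was -0.56. The mean share of TPM on these genes was 12.9% in TN1 and 5.02% in TN2 (exact permutation test, one-sided p = 0.1, the smallest that 2 against 3 libraries allow, and 0.2 as the two-sided p, taken as 2 times the one-sided). Nuclear-encoded genes of oxidative phosphorylation had 4 of 25 positive and a median of -0.13. On log2(TPM + 1) that median was 0.25, or -0.19 relative to all genes.

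Cytosolic ribosomal protein genes were positive in 1 of 30 cases, with a median of -0.35 (-0.02 on log2(TPM + 1), where it was -0.46 relative to all genes). Examples were Rpl23 (594 and 431 against 414, 262 and 297 CPM, -0.66 ± 0.31) and Rps19 (-0.40 ± 0.25). Of glycolysis and hypoxia genes 7 of 23 were positive with a median of -0.10 (0.32 on log2(TPM + 1), where that of all genes was 0.44). Ldha, encoding lactate dehydrogenase A, was at 1163 and 1592 against 959.6, 729 and 922 CPM (-0.66 ± 0.29). Lysosome genes had a median of -0.24 that became 0.12 on log2(TPM + 1), with the cathepsin gene Ctsl higher (0.78 ± 0.31). Relative to all genes the lysosome medians were -0.40 and -0.32. Cell cycle genes had a median of -0.05 (0.11 on log2(TPM + 1), where that of all genes was 0.44). Top2a, a topoisomerase of dividing cells, was at 26.8 and 49.0 against 9.65, 25.8 and 2.47 CPM (-1.58 ± 0.95).

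**Figure D5:**
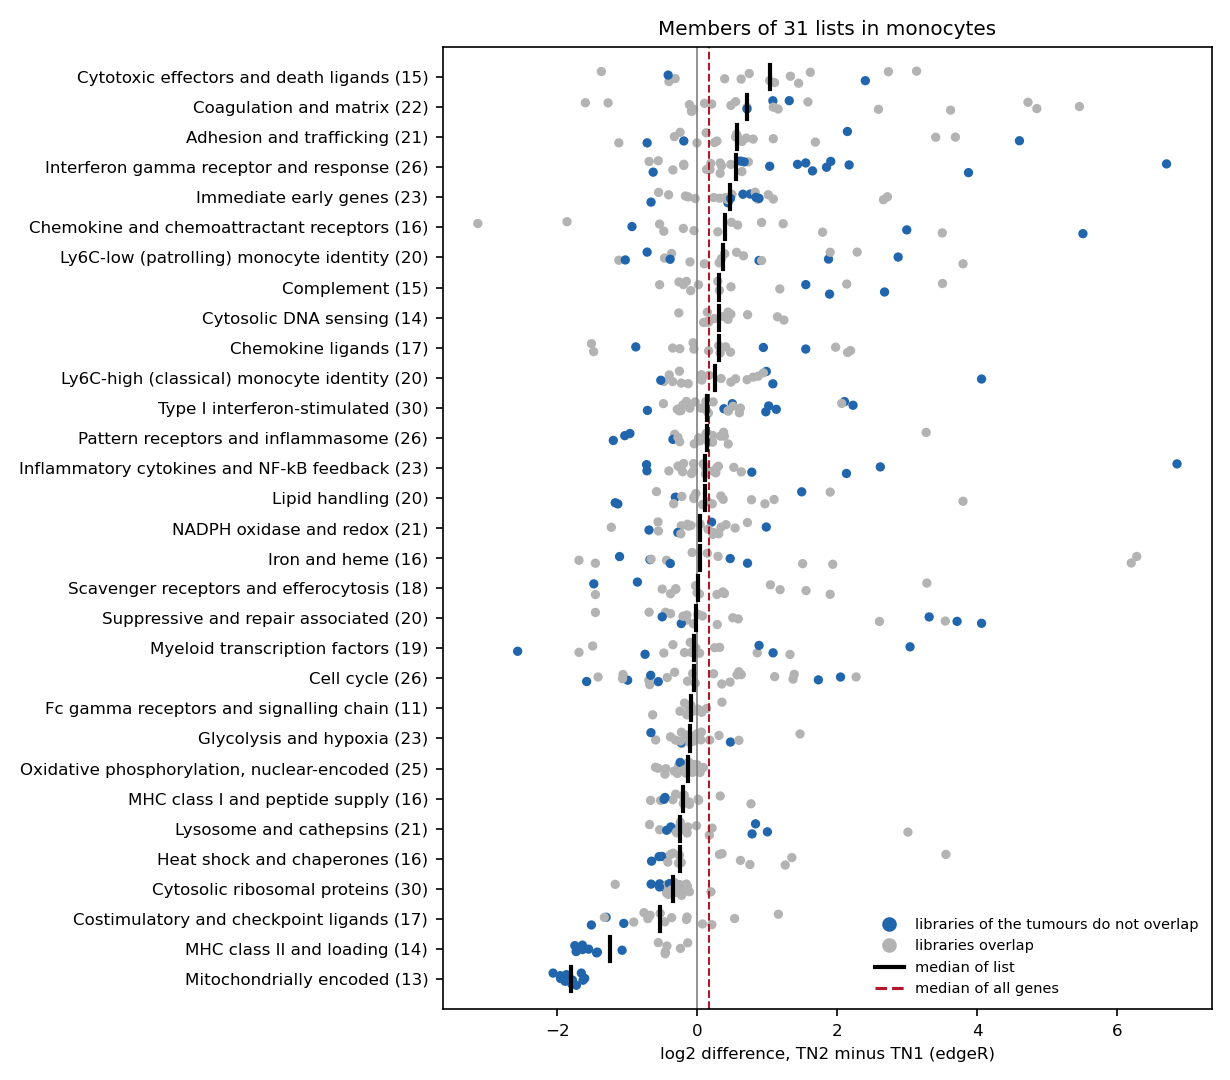
Log2 difference (TN2 minus TN1, edgeR) of every measured member of 31 gene lists, 1 point a gene, with the number of members in brackets. Blue points are genes whose libraries do not overlap between the tumours, black bars are list medians and the dashed line is the median of all genes (0.16). The mitochondrially encoded and class II lists lie lowest, at medians of -1.80 and -1.25.

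Of 25 genes chosen by name for their roles in monocytes, 3 had an unadjusted p under 0.05 and 17 had a difference within 1 SE. Cx3cr1, a chemokine receptor of patrolling monocytes, was at 73.7 and 0.327 CPM under TN1 and 99.8, 53.1 and 57.3 CPM under TN2 (0.92 ± 1.52), so TN1 tag_482 alone was near 0. Nos2 and Arg1, the arginine enzymes of activated and suppressive myeloid cells, were at most 2.03 and 1.40 CPM in any library, too few to compare.

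Between cell types, 0 of 13398 genes (0%) differed in their tumour effect by edgeR over all 10 libraries (smallest adjusted p 0.349), and 472 had an unadjusted p under 0.05 (3.52%). DESeq2 called 30 genes, limma-trend on log2(TPM + 1) called 0, edgeR without neutrophil library TN1 tag_191 called 380 and without monocyte library TN1 tag_191 called 71, each of which left the remaining TN1 tag_482 library alone in its group. On the 10-library scale Spon1, a matrix protein gene, was at 277 ± 6.76 and 257 ± 48.0 CPM in monocytes under TN1 and TN2 and 1.02 ± 0.175 and 25.3 ± 16.5 CPM in neutrophils (difference of effects -4.73 ± 0.75). Monocyte libraries of the tumours overlapped, and neutrophil libraries did not.

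Some genes of smallest p in monocytes showed the same order in neutrophils. Irgm2 in neutrophils was at 50.9 and 55.1 CPM in TN1 and 118, 94.6 and 126 CPM in TN2, and Igtp at 103 and 116 against 249, 186 and 224 CPM, so both were higher in TN2 in both cell types. The differences between the effects were 0.76 ± 0.56 and 0.65 ± 0.55, within 2 SE. Others did not. Lcn2 was at 1237 to 2280 CPM in neutrophils of both tumours, and its difference of effects was 4.64 ± 1.15. Clec4f had 0 counts in all 5 neutrophil libraries, and Timd4, Clec4b1 and Flrt3 were at most 1.83 CPM there.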

How the data were processed

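Lung neutrophils and CCR2+ monocytes of NOD/scid mice were sorted and sequenced (Smart-seq2, HiSeq 2500, per the labels' protocols). The authors quantified transcripts with kallisto 0.42.3, per the submitters' processing notes, and deposited, per the file headers, an estimated count, an effective length and a TPM value for each transcript. TPM depends on the effective length, so a short transcript can gain TPM from few reads. The authors' deposited table gives log2 group means and p-values from AltAnalyze, whose test is not given in the sources used here. Its means equalled the mean log2(TPM + 1) within 0.01 for 95.82% and 94.84% of 27409 genes.

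Counts and TPM were summed to genes with GENCODE M21, which held 81927 of 85276 transcripts (96.07%). The 3349 others held 2.555% to 3.564% of monocyte counts and were left out. No other columns of per-sample values were present. Genes with 10 counts or more in all that passed filterByExpr were tested on rounded counts with edgeR 4.0.16 in R 4.3.3 (TMM, quasi-likelihood, Benjamini-Hochberg adjustment, threshold 0.05), on the 5 monocyte libraries, with a biological coefficient of variation of 0.83 and 3 residual degrees of freedom. The tumour effects of monocytes and neutrophils were compared in a fit of all 10 libraries. The scripts were tested on simulated data. Alternatives were DESeq2 1.42.0, limma 3.58.1 (voom, and trend on log2 TPM with pseudocounts of 1 and 0.1), other size factors, no filter, length-scaled counts, counts without mitochondrially encoded genes, all groups in 1 fit and each library left out.

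Named genes were the 12 protein-coding genes of smallest p in each direction (mean of at least 5 CPM, no overlap between the tumours), 25 genes by name, up to 4 of smallest p in each list and 6 of smallest p between cell types. Others named were chosen after their values were seen. The comparison and the lists were chosen with earlier results of these data known. Marker genes of other cell types were summed per library. Some named genes are not reported here.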

Additional observations from a re-analysis of the deposited data

How the results depend on the processing

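Depth and replicate number limit the comparison, since 2 and 3 libraries leave 3 residual degrees of freedom and a lost gene call is not an absent difference. The 0 genes called by edgeR between the tumours became 7 with DESeq2, 5 with limma-trend on log2(TPM + 0.1) and 4 on log2(TPM + 1). The last count was 0 after transcripts under 300 bases were left out, an alternative chosen after seeing the data and run on that scale only. Leaving out any 1 library left 0 calls. Genes without overlap numbered 3111 on TPM, and 4005 to 8207 when 1 library was left out, where fewer samples have to separate. The 0 genes that differed in tumour effect between cell types became 30 with DESeq2 and 1 with no filter on low counts, and ran from 0 to 380 when 1 library was left out.

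Libraries of the 2 cell types share tags. Same-tag deviations from the group mean correlated at 0.089 for tag_191 and tag_482, -0.057 for tag_367, 0.380 for tag_706 and 0.342 for tag_1341. With 2 TN1 libraries per cell type, the deviations of tag_191 and tag_482 mirror each other, so theirs is a single result. Every tag but tag_367 correlated best with its own number. These values do not settle whether a shared tag marks the same animal. The labels do not state it, so the main fit took tags to share only a number. With the tag as a replicate block 0 genes passed (smallest adjusted p 0.996, edgeR), and 311 had an unadjusted p under 0.05.

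The differences of 136 genes were followed over 15 settings. Of these values 1976 kept direction and side of the threshold, or moved by less than 1 SE where the difference was itself within 1 SE, 37 of the latter kind moved by more, 4 passed the threshold (Chil3, Lcn2, Clec4n and Clec4f in DESeq2) and 4 reversed. Clec12a was at 0.00235 on log2(TPM + 1) and 0.00238 on log2(TPM + 0.1). Without 1 library Plet1 ran from -0.53 (without TN2 tag_706) to 5.73 and Siglecf from -0.15 (without TN2 tag_706) to 1.97. Medians of 49 lists gave 733 values, of which 98 in 32 lists had another sign than the reported median. In all but 7 of these 98 the reported median was not larger than the SD between libraries. Besides these 7, 53 values moved by more than that SD. The 7 sign changes past it were for complement genes (-0.073 without TN2 tag_1341, and 0.78 at most, without TN1 tag_191), alveolar macrophage markers (-0.34 without TN2 tag_706, and 4.77 at most, without TN1 tag_191), lysosome genes (0.12 on log2(TPM + 1), 0.12 on log2(TPM + 0.1) and 0.086 without transcripts under 300 bases) and ATF4 genes (0.034 on log2(TPM + 1) and 0.20 without TN1 tag_191, and -0.60 at the lowest, without TN2 tag_706). Relative to all genes the lysosome median was -0.40 in the main fit and -0.32, -0.38 and -0.34 in those settings. On that measure its sign did not change. The ATF4 medians of 0.034 and 0.20 lay below the all-gene medians there, 0.44 and 0.71. The complement median without TN1 tag_191 was 0.07 relative to all genes. The cause of the sign changes was not tested.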

Other observations

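Sterol synthesis genes, listed after Fdps had been seen, leaned lower in TN2 monocytes without passing the test. Of 24 genes of synthesis and uptake, 4 were positive, the median was -0.54 (-0.63 relative to all genes on log2(TPM + 1)), and 6 lay lower without overlap (8.5% of all genes did). Cyp51, the lanosterol demethylase, was at 142 and 112 CPM under TN1 and 61.1, 41.2 and 64.2 CPM under TN2 (-1.20 ± 0.33 SE), and Idi1, an isomerase of the mevalonate pathway, at 96.8 and 131 CPM under TN1 and 30.1, 44.1 and 66.1 CPM under TN2 (-1.28 ± 0.41). Srebf2, the transcription factor that drives these enzymes, was at 108 and 106 against 80.5, 70.0 and 76.2 CPM (-0.50 ± 0.26). Without TN1 tag_482 the median was -0.10.

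C-type lectin genes, also listed after the values were seen, had 9 of 14 negative, with 6 lower and 0 higher without overlap (8.5% and 12.3% of all genes) and a median of -0.28 (0.03 on log2(TPM + 1), or -0.41 relative to all genes). The 6 were Clec4n, Clec4f, Clec4b1, Clec7a, Clec10a (64.6 and 127 against 59.4, 27.0 and 19.7 CPM) and Clec12a (185 and 182 against 174, 112 and 152 CPM). Clec4e, encoding the glycolipid receptor Mincle, overlapped at 1451 and 1034 against 1265, 899.8 and 2671 CPM. Genes of the amino acid stress response around ATF4 had 11 of 17 negative and a median of -0.28 (0.03 on log2(TPM + 1) and 0.20 without TN1 tag_191). The all-gene medians in those settings were 0.44 and 0.71. In the main fit the list median was -0.44 relative to all genes. Of the 17 genes, 5 lay lower without overlap (8.5% of all genes), among them Slc3a2, an amino acid transporter chain (941 and 974 against 607, 603 and 634 CPM, -0.64 ± 0.23 SE), and Ddit3, encoding CHOP (54.7 and 96.7 against 41.2, 54.1 and 27.1 CPM). Atf4 itself overlapped (-0.04 ± 0.33).

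In the authors' deposited table the 2 genes with an adjusted p under 0.05 were the pseudogenes Rpl38-ps2 (adjusted p 0.0179) and Gm13577 (adjusted p 0.0257), each with 1 transcript of 213 bases. Their effective length, the number of start positions a fragment could have, was 4.68 bases in TN1 tag_191 and 6.76 in TN1 tag_482, but 213 in each TN2 library. Rpl38-ps2 held 227 and 207 counts in TN1, which gave 7143 and 4311 TPM, and 0 counts in TN2. Gm10443, of 210 bases, had effective lengths of 1.68 and 3.76 bases and held 559 and 376 counts in TN1, or 49119 and 14060 TPM, and 0 counts in TN2. Transcripts with an effective length under 10 bases held 6.35% and 2.12% of TPM in the TN1 monocyte libraries and 0.399% to 0.859% in TN2. Their share of counts was 0.0130% and 0.00946% in TN1. The parent gene Rpl38 was present in all 5 libraries. Without any transcript under 300 bases the median of all genes on log2(TPM + 1) was 0.42, against 0.44 with them.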
